A study of Mus musculus with 128 samples.

Results

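The 38 mouse genes whose symbols start with Ube2, most of them ubiquitin-conjugating E2 enzymes, were followed in single oocytes and single early embryos without and with a maternal copy of Kdm4a, a JmjC-domain histone demethylase. The rule for a member is its symbol alone, among the 41300 genes of the deposited table and leaving out names that contain -ps. The groups were knockout MII oocytes (mature unfertilized eggs) and knockout embryos of 2, 4 and 8 cells (genotype m-/p-), and wildtype oocytes and embryos of the same stages (genotype m+/p-), all C57BL/6. Embryos were taken 1.5, 2.5 and 3.5 days post fertilization. Eggs of both genotypes were fertilized with Kdm4a knockout sperm, so no embryo of either genotype had a paternal copy, and sampling followed the progress of the control embryos. Each of the 8 groups had 16 libraries of polyA RNA, each from 1 oocyte or embryo. The labels do not name mothers, so each p-value reflects variation among single oocytes or embryos rather than among females.

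Ubiquitin is attached to proteins by a relay: an E1 enzyme activates it, an E2 enzyme carries it, and an E3 ligase brings the loaded E2 to the target. The E2 often sets the kind of chain that is built, and with it whether the target is destroyed by the proteasome or altered in function. Eggs and cleavage embryos use this system to leave meiosis and to remove maternal proteins while maternal messenger RNA is cleared and embryonic transcription starts. Not every member is a ubiquitin E2. Ube2f and Ube2m carry the modifier NEDD8, and Ube2v1 and Ube2v2 are E2-like partners without a catalytic cysteine. Ube2cbp, also called Ube3d, is an E3-type protein that binds Ube2c, and Ube2uos is annotated by RefSeq as a long noncoding RNA.

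Kdm4a, the check of the labels, averaged 1.28 ± 0.904 CPM (CPM, counts scaled to the total of the library, ± SD, n = 16) in knockout and 10.9 ± 3.06 CPM in wildtype oocytes, a log2 fold change of -2.999 (SE 0.24). In 2-cell embryos it averaged 2.65 ± 1.83 CPM in knockout and 15.1 ± 4.83 CPM in wildtype. In 4-cell and 8-cell embryos Kdm4a fell under the expression filter and checked no label. The 127 libraries kept held 526987 to 4656090 counts (median 2128209); 8-cell knockout replicate 4 was left out for lack of counts. Single libraries stood apart from their groups. 8-cell knockout replicate 7 went against its stage, with 3312 CPM summed over 12 oocyte and cleavage markers, against 53.7 to 163 CPM in the other 14 knockout libraries. MII knockout replicate 15 held 3103 CPM of these markers, against 12532 to 18448 CPM in the other 15, and 4-cell knockout replicate 15 held 895 CPM, against 133 to 317 CPM. Values without these libraries follow where they change the call of a named member, and for the knockout sums, the knockout stage counts and some genes of the pathway lists. CPM is a share of the library, so a lower level of one RNA and a higher level of all others cannot be told apart.

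Promoter windows are printed for 5 members with large stage changes or genotype differences, so that their letters stand beside their values (RefSeq, build GRCm38.p6, 250 bases before to 50 after the gene start). Capitals mark matches on either strand to TATAAA (the TATA box), to CCAAT (the letters of the CCAAT box), to GGGCGG (the GC box) and to CACGTG (an E box). The windows lie at chr1:134962315-134962614 (+ strand) for Ube2t, chr16:17201443-17201742 (- strand) for Ube2l3, chrX:36874045-36874344 (+ strand) for Ube2a, chr9:55149119-55149418 (+ strand) for Ube2q2 and chr4:41135771-41136070 (+ strand) for Ube2r2.
Ube2t: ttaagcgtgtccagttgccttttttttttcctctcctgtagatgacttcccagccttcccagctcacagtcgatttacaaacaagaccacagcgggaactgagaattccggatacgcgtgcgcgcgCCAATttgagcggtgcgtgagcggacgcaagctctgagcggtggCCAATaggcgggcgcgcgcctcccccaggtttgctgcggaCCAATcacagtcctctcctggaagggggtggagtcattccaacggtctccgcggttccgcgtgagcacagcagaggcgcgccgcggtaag
Ube2l3: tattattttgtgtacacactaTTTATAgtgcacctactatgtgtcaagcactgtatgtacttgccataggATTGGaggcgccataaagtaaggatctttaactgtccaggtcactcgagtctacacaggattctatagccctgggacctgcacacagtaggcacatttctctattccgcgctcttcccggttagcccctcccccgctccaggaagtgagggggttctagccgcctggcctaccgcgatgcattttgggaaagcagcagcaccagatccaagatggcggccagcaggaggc
Ube2a: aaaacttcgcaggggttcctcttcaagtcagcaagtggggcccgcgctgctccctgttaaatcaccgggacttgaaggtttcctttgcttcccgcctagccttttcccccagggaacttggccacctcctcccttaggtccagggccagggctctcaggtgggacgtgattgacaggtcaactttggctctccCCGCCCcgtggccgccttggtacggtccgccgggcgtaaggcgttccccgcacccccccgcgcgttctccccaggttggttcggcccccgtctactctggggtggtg
Ube2q2: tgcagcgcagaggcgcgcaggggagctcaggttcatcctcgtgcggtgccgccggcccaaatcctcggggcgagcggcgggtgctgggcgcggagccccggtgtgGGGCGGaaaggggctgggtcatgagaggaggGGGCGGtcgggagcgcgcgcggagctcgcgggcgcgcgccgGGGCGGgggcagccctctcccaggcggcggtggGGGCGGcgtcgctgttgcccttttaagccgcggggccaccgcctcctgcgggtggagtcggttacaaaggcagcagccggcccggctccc
Ube2r2: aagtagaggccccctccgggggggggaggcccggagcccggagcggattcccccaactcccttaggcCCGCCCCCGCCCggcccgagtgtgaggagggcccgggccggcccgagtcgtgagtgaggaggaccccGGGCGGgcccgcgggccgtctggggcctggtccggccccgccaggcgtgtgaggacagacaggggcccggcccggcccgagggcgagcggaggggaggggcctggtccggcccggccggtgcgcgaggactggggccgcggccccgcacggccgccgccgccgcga
The Ube2t window held 3 CCAAT matches, the Ube2l3 window 1 TATAAA and 1 CCAAT match, and the windows of Ube2q2, Ube2r2 and Ube2a held 4, 3 and 1 GGGCGG matches. Among the 42 windows found for 31 members, GGGCGG stood in 69%, against 35.7% of all 32851 windows of the table. CCAAT stood in 23.8% against 37.4%, TATAAA in 9.52% against 13.6% and CACGTG in 7.14% against 7.15%. These matches describe letters only.

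Levels of different genes were compared per kilobase of gene length. Over the 8 groups Ube2d3, a broad-range E2 that serves many E3 ligases, stood first, followed by Ube2t, Ube2e3, Ube2d2a and Ube2c. In MII oocytes Ube2t, the E2 of the Fanconi anaemia pathway of DNA crosslink repair, averaged 1450.2 ± 453 CPM per kb in knockout and 843 ± 314 CPM per kb in wildtype. Ube2d3 averaged 886 ± 226 CPM per kb in knockout and 841 ± 81.6 CPM per kb in wildtype, so that in wildtype oocytes the first 2 members did not differ beyond their spread. In 2-cell embryos Ube2d3 led with 946 ± 256 CPM per kb in knockout and 1093 ± 124 CPM per kb in wildtype. From the 4-cell stage Ube2e3, an E2 with an extended N-terminus, led in both genotypes. It averaged 428 ± 145 CPM per kb in knockout and 205 ± 76.7 CPM per kb in wildtype 4-cell embryos, where wildtype Ube2c, at 199 ± 42.9 CPM per kb, lay within its spread. In 8-cell embryos Ube2e3 averaged 419 ± 135 CPM per kb in knockout and 641 ± 133 CPM per kb in wildtype. Without the libraries that stood apart, knockout Ube2t averaged 1547 ± 244 CPM per kb and knockout Ube2d3 832 ± 75.7 CPM per kb at MII, and knockout Ube2e3 averaged 424 ± 149.6 CPM per kb at the 4-cell and 445 ± 90.9 CPM per kb at the 8-cell stage.

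The 38 genes together took 8730 ± 1123 CPM in knockout and 7796 ± 497 CPM in wildtype MII oocytes, and 8901 ± 1416 CPM in knockout and 9632 ± 531 CPM in wildtype 2-cell embryos. They took 6523 ± 566 CPM in knockout and 5280 ± 474 CPM in wildtype 4-cell embryos, and 7028 ± 1192 CPM in knockout and 6660 ± 458 CPM in wildtype 8-cell embryos. Without the library named for each stage (replicate 15 at MII, 13, which had the fewest counts, at the 2-cell, 15 at the 4-cell and 7 at the 8-cell stage), the knockout sums were 8464 ± 376 CPM, 8765 ± 1354 CPM, 6529.7 ± 585 CPM and 6813 ± 884 CPM. The 5 leading members held between 55.0% and 86.8% of the summed level per kilobase, depending on the group. At the low end, the highest value in any library was 1.90 CPM for Ube2ql1, 2.87 CPM for Ube2uos, 6.86 CPM for Ube2dnl2 and 7.31 CPM for Ube2d2b, the last 2 being relatives of the Ube2d enzymes. It was 10.8 CPM for Ube2l6, the E2 of the ubiquitin-like protein ISG15, 23.3 CPM for Ube2dnl1 and 13.98 CPM for Ube2o, a large protein that joins E2 and E3 activity. These 7 fell under the expression filter in every genotype comparison. Non-whole counts, whose origin the sources used here do not give, were common among the non-zero values of some members. The share was 85.8% for Ube2l3, 82.7% for Ube2v2, 77.1% for Ube2v1, 73.2% for Ube2n, 70.9% for Ube2w and 68.5% for Ube2d3 and Ube2d2a. Levels of these genes may include reads of near-identical copies.

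**Figure D1:**
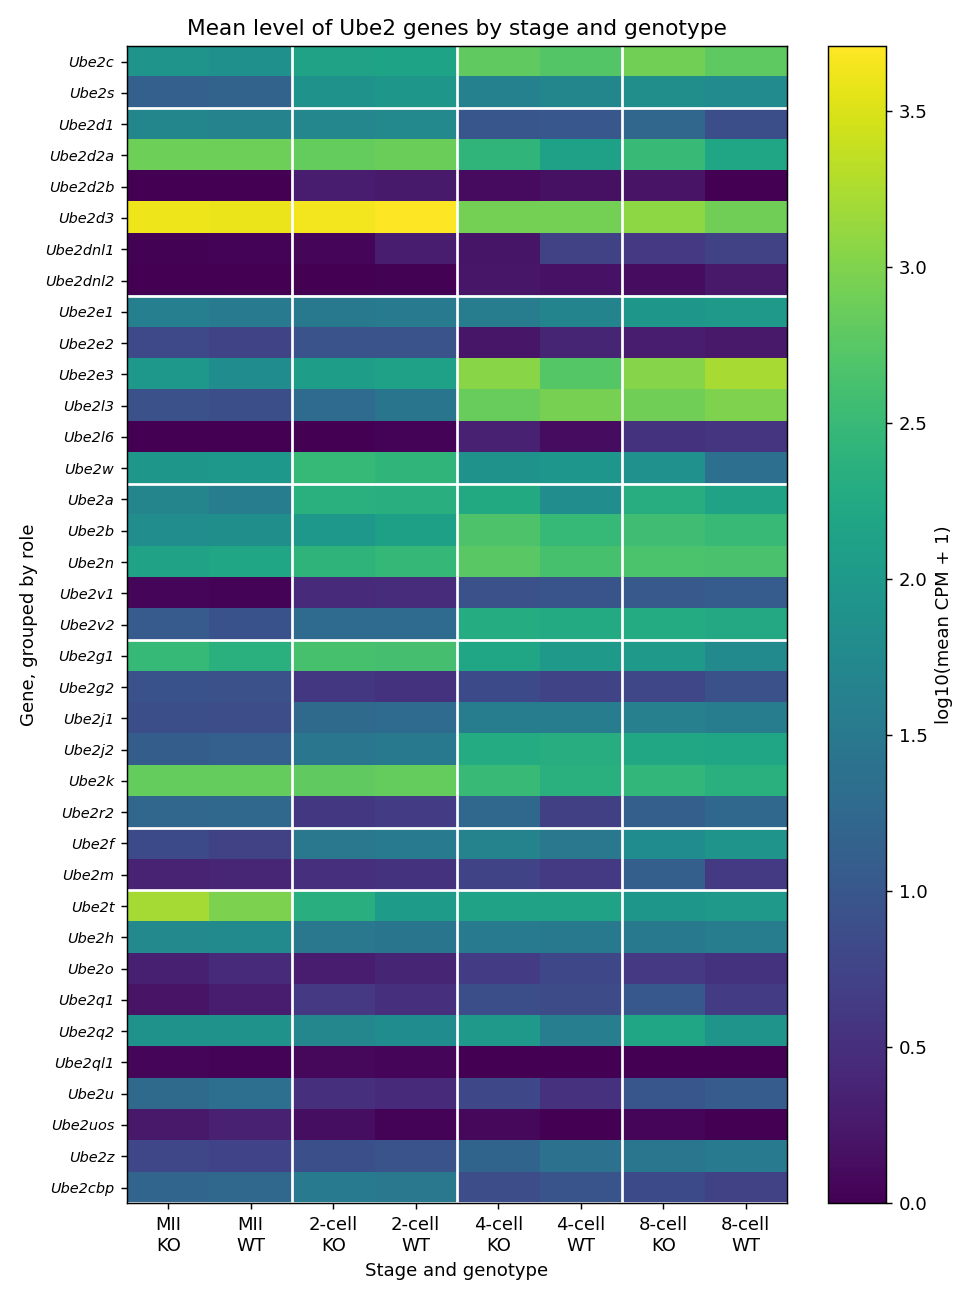
Mean level of Ube2 genes (rows, grouped by role) in the 8 groups of stage and genotype (columns, knockout left of wildtype), as log10 of the mean CPM plus 1; n = 16 libraries per group, 15 in 8-cell knockout. Ube2d3 is the highest row in MII oocytes and 2-cell embryos and stays among the higher rows after that, Ube2t is high in MII oocytes, and Ube2e3, Ube2l3 and Ube2c are higher from the 4-cell stage than before it.

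In wildtype, most members changed between the 2-cell and the 4-cell stage. From MII to the 2-cell stage 6 of 28 members tested rose and 5 fell by the stage rule (edgeR's adjusted p under 0.05 together with a log2 change of 1 or more in size), where 31.8% of all genes tested rose and 19.4% fell, 51.3% in all. From the 2-cell to the 4-cell stage 9 of 29 rose and 12 fell, where 31.2% of all genes rose and 43.5% fell, 74.7% in all. From the 4-cell to the 8-cell stage 7 of 32 rose and 1 fell, where 9.67% of all genes rose and 10.9% fell, 20.6% in all. The members' shares, 39.3%, 72.4% and 25%, were under or near those of all genes. In knockout, 4 of 28 rose and 5 fell at the first step (30.2% and 19.2% of all genes, 49.4% in all), 8 of 29 rose and 10 fell at the second (33.2% and 41.9%, 75.1% in all), and 3 of 32 rose and 0 fell at the third (7.66% and 3.85%, 11.5% in all; 1 lower at an unadjusted p under 0.05). Without the library that stood apart at either stage or at both, 4 to 6 rose and 5 to 6 fell in knockout at the first step, 8 to 9 rose and 10 fell at the second, and 2 to 4 rose and 0 to 1 fell at the third. Of all genes tested in these fits, 49.3% to 50.9% were called at the first step, 75.1% to 75.3% at the second and 10.9% to 12.9% at the third. The median log2 change of all genes tested was 0.20, -0.44 and -0.04 at these steps (0.34, -0.77 and -0.06 with RLE in place of TMM scaling), and single changes are to be read against it. The log2 changes carry these scaling factors and CPM does not, so the 2 can differ in size or sign between stages.

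Of the Ube2d enzymes, Ube2d3, Ube2d2a and Ube2d1 fell after the 2-cell stage in wildtype. Wildtype Ube2d3 had 3308 to 4456 CPM (median 3906) at MII, 3707 to 6278 CPM (median 5216) in 2-cell, 659 to 1178 CPM (median 785) in 4-cell and 592 to 961 CPM (median 788) in 8-cell embryos. The 2-cell and 4-cell ranges did not overlap, and Ube2d3 fell by 2.82 (SE 0.12, adjusted p 3.15e-33) on the log2 scale between them. Wildtype Ube2d2a, its close relative, had 569.8 to 992 CPM (median 775) at MII, 533 to 1439 CPM (median 691) in 2-cell, 84.05 to 201 CPM (median 126) in 4-cell and 90.9 to 221 CPM (median 148) in 8-cell embryos. It fell by 2.77 (SE 0.12) at the same step, again without overlap. Ube2d1, of the same subfamily, had 36.1 to 58.4 CPM (median 43.2) at MII, 34.9 to 77.6 CPM (median 53.4) in 2-cell, 0 to 22.3 CPM (median 7.87) in 4-cell and 0.746 to 16.2 CPM (median 6.39) in 8-cell embryos and fell by 2.86 (SE 0.29).

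Ube2l3 and Ube2e3 ran the other way. Ube2l3 serves HECT and RING-between-RING ligases, among them parkin. It had 2.44 to 12.1 CPM (median 6.95) at MII, 14.5 to 46.6 CPM (median 25.3) in 2-cell, 688 to 1183 CPM (median 876) in 4-cell and 645 to 1275 CPM (median 991) in 8-cell embryos in wildtype. No 2-cell value reached the 4-cell range, and the rise of 4.81 (SE 0.17, adjusted p 4.05e-36) was the largest called change of a member at any wildtype step; it had risen by 1.54 (SE 0.20) to the 2-cell stage. Wildtype Ube2e3 had 34.6 to 105 CPM (median 64.4) at MII, 103 to 167 CPM (median 124) in 2-cell, 176 to 874 CPM (median 521) in 4-cell and 1099 to 2419 CPM (median 1615) in 8-cell embryos. The 2-cell, 4-cell and 8-cell ranges did not overlap, and Ube2e3 rose by 1.78 (SE 0.16) and then by 1.76 (SE 0.19). Of its relatives, Ube2e1 rose by 1.21 (SE 0.25) to the 8-cell stage. Ube2e2 had 1.35 to 8.40 CPM (median 4.95) at MII, 2.06 to 14.9 CPM (median 8.08) in 2-cell, 0 to 6.51 CPM (median 0.667) in 4-cell and 0 to 3.89 CPM (median 0) in 8-cell embryos and fell by 2.69 (SE 0.52) to the 4-cell stage. That fall was tested through the 2-cell level, since 1 knockout and 1 wildtype 4-cell embryo reached the 5.03 CPM of the 4-cell expression filter.

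Ube2c and Ube2s work with the anaphase-promoting complex, the E3 ligase that ends metaphase: Ube2c starts the chain and Ube2s extends it. Wildtype Ube2c had 21.05 to 98.96 CPM (median 84.4) at MII, 59.6 to 271 CPM (median 134) in 2-cell, 299.9 to 703 CPM (median 498) in 4-cell and 478 to 903 CPM (median 605) in 8-cell embryos, and rose by 1.67 (SE 0.14) from the 2-cell to the 4-cell stage. Wildtype Ube2s had 4.00 to 27.8 CPM (median 13.9) at MII, 50.1 to 179 CPM (median 81.2) in 2-cell, 26.3 to 76.3 CPM (median 51.8) in 4-cell and 30.1 to 92.8 CPM (median 58.8) in 8-cell embryos. Its MII and 2-cell ranges did not overlap; it rose by 2.27 (SE 0.21, adjusted p 4.85e-16) to the 2-cell stage and fell by 1.14 (SE 0.21) to the 4-cell stage.

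**Figure D2:**
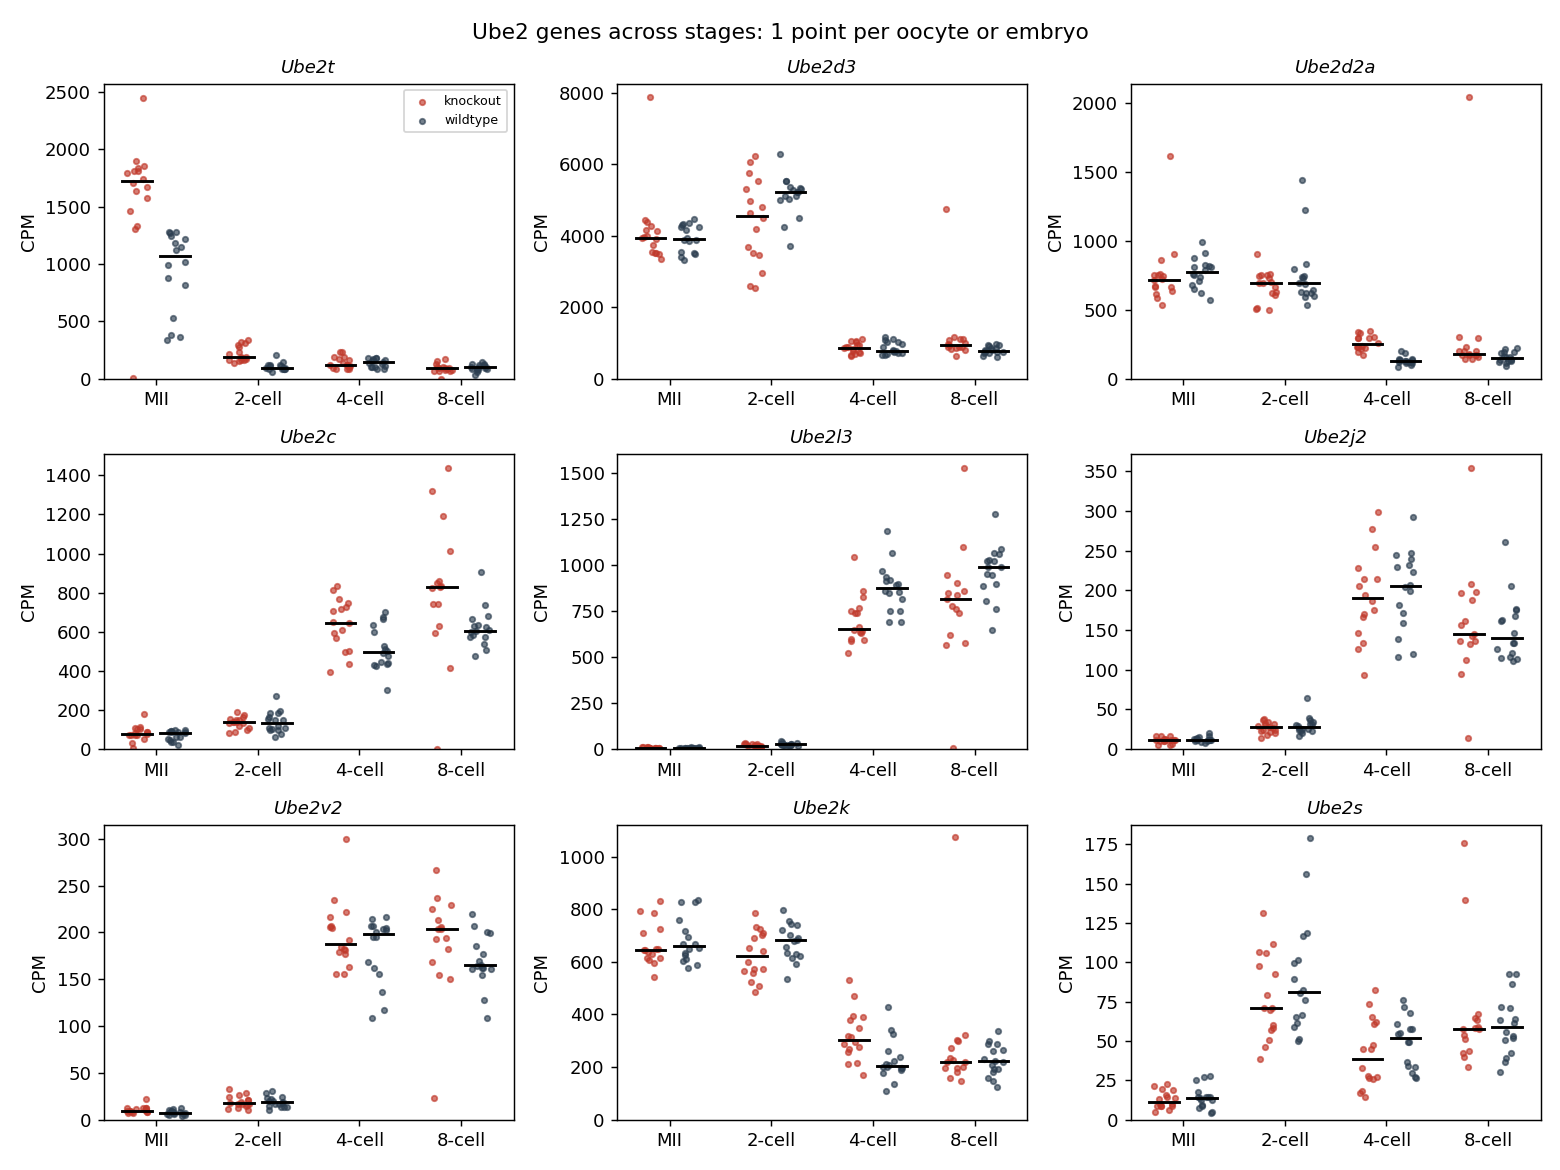
CPM of 9 Ube2 genes at the 4 stages, 1 point per oocyte or embryo (red knockout, left; dark wildtype, right) with a bar at each group's median, on linear axes. Ube2t is highest at MII, Ube2d3, Ube2d2a and Ube2k are lower after the 2-cell stage than before, and Ube2c, Ube2l3, Ube2j2 and Ube2v2 are higher from the 4-cell stage.

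Ube2a and Ube2b are close homologues of yeast Rad6 that modify histones and the DNA clamp PCNA. Wildtype Ube2a had 20.7 to 53.5 CPM (median 35.2) at MII, 148 to 307 CPM (median 202) in 2-cell, 13.1 to 180.2 CPM (median 54.7) in 4-cell and 68.3 to 231 CPM (median 133) in 8-cell embryos, a course with a low point at the 4-cell stage. It rose by 2.17 (SE 0.13), fell by 1.96 (SE 0.22) and rose by 1.23 (SE 0.24). Wildtype Ube2b, with medians of 66.6, 125, 319 and 330.3 CPM at the 4 stages, rose by 1.02 (SE 0.13) from the 2-cell to the 4-cell stage; with RLE scaling this was 0.70 and under the fold rule. Ube2n builds Lys63-linked chains with Ube2v1 or Ube2v2 and passed the rule at no step, with wildtype medians of 151, 302, 381 and 433 CPM. Wildtype Ube2v2 had 4.05 to 12 CPM (median 7.62) at MII, 10.7 to 31.05 CPM (median 18.5) in 2-cell, 108 to 217 CPM (median 198) in 4-cell and 108 to 220.2 CPM (median 165) in 8-cell embryos. Its 2-cell and 4-cell ranges did not overlap, with a rise of 3.01 (SE 0.16), and Ube2v1 rose by 1.78 (SE 0.24) at that step from a low level.

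Among the enzymes for Lys48-linked chains and for degradation at the endoplasmic reticulum, Ube2k fell by 1.82 (SE 0.13) and Ube2g1 by 2.29 (SE 0.17) from the 2-cell to the 4-cell stage. Ube2j2, anchored in that membrane, had 7.77 to 20.1 CPM (median 11.9) at MII, 17.2 to 64.3 CPM (median 28.04) in 2-cell, 116 to 292 CPM (median 205) in 4-cell and 111 to 261 CPM (median 140.3) in 8-cell embryos. It rose by 2.49 (SE 0.16) without overlap, and Ube2j1, anchored there too, rose by 1.09 (SE 0.21) to the 2-cell stage (0.95 with no expression filter, under the fold rule). Ube2r2, a Cdc34-type E2 of the cullin-RING ligases, had 9.17 to 24.3 CPM (median 16.3) at MII, 0 to 8.55 CPM (median 2.92) in 2-cell, 0 to 9.60 CPM (median 3.34) in 4-cell and 5.09 to 32.9 CPM (median 15.7) in 8-cell embryos. It fell by 2.59 (SE 0.30) to the 2-cell stage and rose by 2.20 (SE 0.34) to the 8-cell stage. Ube2g2, an E2 of the same degradation route, had 3.29 to 11.7 CPM (median 7.52) at MII, 1.11 to 5.09 CPM (median 2.24) in 2-cell, 0 to 10.4 CPM (median 5.58) in 4-cell and 2.24 to 15.7 CPM (median 6.86) in 8-cell embryos and fell by 1.96 (SE 0.25) to the 2-cell stage. The falls of Ube2r2 and Ube2g2 were tested through their MII levels. The 4.95 CPM of the 2-cell expression filter was reached by 2 knockout and 4 wildtype embryos for Ube2r2, and by 1 and 1 for Ube2g2.

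The NEDD8 enzyme Ube2f had, in wildtype, 1.65 to 7.70 CPM (median 3.96) at MII, 16.4 to 45.02 CPM (median 31.1) in 2-cell, 2.57 to 89.1 CPM (median 23.2) in 4-cell and 27.6 to 161 CPM (median 77.1) in 8-cell embryos. It rose by 2.48 (SE 0.20) at the first and by 1.62 (SE 0.34) at the last step. Ube2t had 339 to 1278 CPM (median 1069) at MII, 60.2 to 204 CPM (median 94.5) in 2-cell, 80.5 to 184 CPM (median 141) in 4-cell and 30.4 to 141 CPM (median 97.9) in 8-cell embryos in wildtype. Its MII and 2-cell ranges did not overlap, and it fell by 3.57 (SE 0.28, adjusted p 1.33e-18). Ube2u had 14.6 to 29.3 CPM (median 20.2) at MII, 0 to 4.46 CPM (median 1.57) in 2-cell, 0 to 8.98 CPM (median 1.45) in 4-cell and 0.799 to 35.4 CPM (median 8.40) in 8-cell embryos. It fell by 3.96 (SE 0.29) to the 2-cell stage, the largest fall of a member in wildtype, and rose by 2.26 (SE 0.52) to the 8-cell stage. That fall was tested through the MII level, since 2 knockout and 0 wildtype 2-cell embryos reached the 4.95 CPM of the 2-cell expression filter. Its size rests on 2-cell values near 0.

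Of the rest, Ube2h, a partner of the CTLH ligase, fell by 1.51 (SE 0.12) to the 2-cell stage. Ube2q2, an E2 with a long N-terminal extension, fell by 1.02 (SE 0.20) to the 4-cell and rose by 1.27 (SE 0.22) to the 8-cell stage; with no filter the first change was -0.90, under the fold rule. Its relative Ube2q1 rose by 1.23 (SE 0.51) to the 4-cell stage, under the fold rule with RLE scaling (0.91). Ube2z, which takes ubiquitin from the E1 enzyme Uba6, rose by 1.34 (SE 0.29) and Ube2cbp fell by 2.07 (SE 0.31) at that step. Ube2w, which modifies the N-terminus of its targets, had 67.3 to 143 CPM (median 89.6) at MII, 172 to 379 CPM (median 259.6) in 2-cell, 16.4 to 712 CPM (median 45.7) in 4-cell and 5.98 to 47.3 CPM (median 19.1) in 8-cell embryos. It rose by 1.05 (SE 0.11), fell by 1.96 (SE 0.31) and fell by 1.84 (SE 0.42); with no filter the rise was 0.92, under the fold rule. The highest 4-cell value belongs to wildtype replicate 11, and without that library the last 2 log2 changes were -2.69 and -0.98, the second no longer past the fold rule.

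In MII oocytes 4 of 28 members tested were higher and 0 were lower in knockout (14.3%), where edgeR called 5.25% of all genes tested higher and 6.67% lower, 11.9% in all, at an adjusted p under 0.05. At an unadjusted p under 0.05, 6 were higher and 0 lower, and DESeq2 called 4. limma with quality weights called 3 higher and 1 lower, without Ube2g1 (adjusted p 0.0686) and Ube2v2 (adjusted p 0.0539). Ube2a alone kept its call with no expression filter, and again with the replicate number as a block. Ube2e3 had 58.4 to 297 CPM (median 79.2) in knockout and 34.6 to 105 CPM (median 64.4) in wildtype oocytes. The ranges overlapped, with 13 of 16 knockout oocytes above the wildtype median, and the log2 fold change (knockout over wildtype) was 0.63 (SE 0.19, adjusted p 0.0274). Ube2a had 24.6 to 88.2 CPM (median 47.2) in knockout and 20.7 to 53.5 CPM (median 35.2) in wildtype oocytes. Here 15 of 16 knockout oocytes lay above the wildtype median, at 0.48 (SE 0.14, adjusted p 0.0209). Ube2g1, which builds Lys48-linked chains, had 186 to 749 CPM (median 274) in knockout and 151 to 287 CPM (median 217) in wildtype oocytes. Of the knockout oocytes 8 lay above every wildtype oocyte, at 0.53 (SE 0.16, adjusted p 0.0279). Ube2v2 had 6.70 to 21.7 CPM (median 9.67) in knockout and 4.05 to 12 CPM (median 7.62) in wildtype oocytes, at 0.49 (SE 0.17, adjusted p 0.047), a call lost in 17 of the 32 fits that leave out 1 library.

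Ube2t separated the genotypes in the egg once 1 library was left out. It had 2.09 to 2451 CPM (median 1723) in knockout and 339 to 1278 CPM (median 1069) in wildtype oocytes. The lowest value is that of knockout replicate 15; the other 15 knockout oocytes, from 1304 CPM upwards, all lay above every wildtype oocyte. With all libraries the log2 fold change was 0.78 (SE 0.31, adjusted p 0.101) and not called, and without replicate 15 it was 0.89 (SE 0.17, adjusted p 0.000475). That library also held the highest Ube2e3 and Ube2g1 values of its group, and without it they stood at 0.34 (SE 0.10) and 0.34 (SE 0.10), both still called. Without it 5 members were higher and 1 lower of 28, where 19.5% of all genes were called. The oocyte marker sum was 12532 to 18448 CPM (median 15922) in these 15 knockout and 10733 to 14343 CPM (median 12503) in the wildtype oocytes, and its part in the member results was not tested.

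In 2-cell embryos 1 of 25 members tested was higher and 1 lower in knockout (8%), where 7.44% of all genes tested were higher and 9.91% lower, 17.4% in all. Ube2t had 135 to 337 CPM (median 191) in knockout and 60.2 to 204 CPM (median 94.5) in wildtype embryos. All 16 knockout embryos lay above the wildtype median and 7 above every wildtype embryo, at 1.08 (SE 0.14, adjusted p 1.08e-06). Ube2b had 60.1 to 140.4 CPM (median 90.3) in knockout and 96.4 to 199 CPM (median 125) in wildtype embryos. Of the 16 knockout embryos 10 lay below every wildtype embryo, at -0.39 (SE 0.11, adjusted p 0.00935). Without replicate 13, the knockout library with the fewest counts, Ube2t stood at 1.09 and Ube2b at -0.43, both still called, and 18.6% of all genes were called. The Ube2b difference was -0.74 (adjusted p 0.00247) in replicates 1 to 8 alone and -0.06 (adjusted p 0.88) in replicates 9 to 16 alone, so the size of this difference rested on the first of these sets. Embryonic transcripts of the 2-cell and later stages, 8 marker genes, summed to 92.6 to 1695 CPM (median 357) in knockout and 444 to 2501 CPM (median 1010.5) in wildtype 2-cell embryos, and their part in these results was not tested.

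In 4-cell embryos 9 of 28 members tested were higher and 1 lower in knockout (35.7%), where 9.11% of all genes tested were higher and 7.34% lower, 16.5% in all; the median log2 fold change was 0.08 over the members and 0.00 over all genes. Ube2r2 had 3.18 to 36.5 CPM (median 14.7) in knockout and 0 to 9.60 CPM (median 3.34) in wildtype embryos. Of the knockout embryos 12 of 16 lay above every wildtype embryo, at 2.10 (SE 0.35, adjusted p 9.62e-05). Here 15 knockout and 4 wildtype embryos reached the 5.03 CPM of the expression filter, so Ube2r2 was tested here through its knockout level; with no filter it stood at 2.10 (adjusted p 0.000237). Ube2a had 65.9 to 329 CPM (median 172) in knockout and 13.1 to 180.2 CPM (median 54.7) in wildtype embryos. All 16 knockout embryos lay above the wildtype median, at 1.48 (SE 0.28, adjusted p 0.000383). Ube2q2 had 31.6 to 205 CPM (median 94.9) in knockout and 13.98 to 70.6 CPM (median 31.3) in wildtype embryos. Here 11 knockout embryos lay above every wildtype embryo, at 1.43 (SE 0.24, adjusted p 0.000124).

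Ube2e3, the leading member per kilobase at this stage, had 709.6 to 1878 CPM (median 987) in knockout and 176 to 874 CPM (median 521) in wildtype embryos. Of the knockout embryos 11 of 16 lay above every wildtype embryo, at 1.07 (SE 0.19, adjusted p 0.000156). Ube2d2a had 173 to 348 CPM (median 251) in knockout and 84.05 to 201 CPM (median 126) in wildtype embryos. It came closest to separate groups, with 14 of 16 knockout embryos above every wildtype embryo, at 0.999 (SE 0.11, adjusted p 4.96e-07). Its relative Ube2d3, at 0.00 (SE 0.10), was not called. Ube2b had 271 to 916 CPM (median 473) in knockout and 158 to 489.9 CPM (median 319) in wildtype embryos. It was higher in knockout at 0.66 (SE 0.15, adjusted p 0.00284), opposite in sign to its 2-cell difference with all libraries.

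The other called members differed by less. Ube2g1 had 62.2 to 251 CPM (median 158) in knockout and 42 to 192 CPM (median 96.03) in wildtype embryos. Its ranges overlapped widely, at 0.60 (SE 0.19, adjusted p 0.0266), a call lost without knockout replicate 10. Ube2k, a Lys48 chain builder, had 170.3 to 532 CPM (median 305) in knockout and 109 to 427 CPM (median 204) in wildtype embryos. It stood at 0.50 (SE 0.16, adjusted p 0.0299) with overlapping ranges. Ube2n had 412 to 768 CPM (median 548) in knockout and 287 to 738 CPM (median 381) in wildtype embryos. All 16 knockout embryos lay above its wildtype median, at 0.44 (SE 0.14, adjusted p 0.022). The Ube2n difference was 0.15 (adjusted p 0.726) in replicates 1 to 8 alone and 0.67 (adjusted p 0.0336) in replicates 9 to 16 alone. Ube2l3 was the lower one, with 521 to 1045 CPM (median 655) in knockout and 688 to 1183 CPM (median 876) in wildtype embryos. It stood at -0.31 (SE 0.10, adjusted p 0.0344), a call lost in 7 of the 32 fits that leave out 1 library.

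Without 4-cell knockout replicate 15, 8 members were higher and 1 lower, where 16.3% of all genes were called; Ube2k lost its call, at 0.45 (adjusted p 0.0522). The oocyte marker sum was 133 to 895 CPM (median 212) in knockout, 133 to 317 CPM (median 199.5) without replicate 15, and 65.9 to 279 CPM (median 136) in wildtype, and its part in these results was not tested. Ube2a, Ube2d2a, Ube2g1, Ube2k and Ube2q2, higher in knockout, had fallen in wildtype from the 2-cell to the 4-cell stage, and Ube2b and Ube2e3, also higher, had risen; both comparisons use the same wildtype 4-cell libraries. Ube2w had 14.6 to 139 CPM (median 89.03) in knockout and 16.4 to 712 CPM (median 45.7) in wildtype embryos and was not called, at -0.11 (SE 0.41, adjusted p 0.888). Without wildtype replicate 11, which held its highest value, it was higher in knockout by 0.77 (adjusted p 0.0423).

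**Figure D3:**
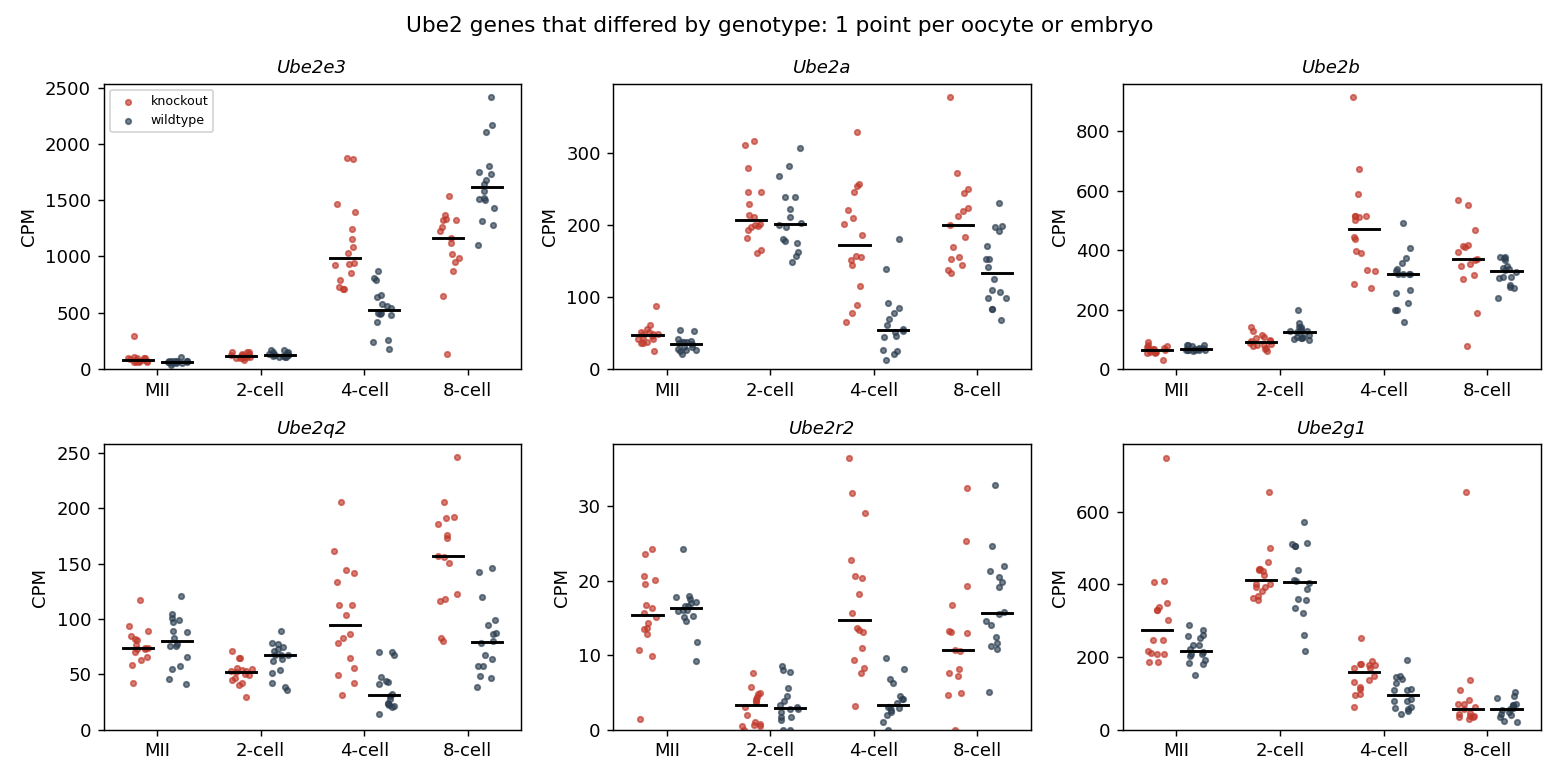
CPM of 6 Ube2 genes at the 4 stages, 1 point per oocyte or embryo (red knockout, left; dark wildtype, right) with a bar at each group's median, on linear axes. Ube2e3 is higher in knockout at the 4-cell and lower at the 8-cell stage, and Ube2a and Ube2q2 are higher in knockout at both.

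In 8-cell embryos 8 of 30 members tested were higher and 1 lower in knockout (30%), where 8.45% of all genes tested were higher and 3% lower, 11.4% in all. Without replicate 7, the library that went against its stage, 6 were higher and 1 lower, where 12.4% of all genes were called. Ube2q2, Ube2q1, Ube2m, Ube2w and Ube2a were higher and Ube2e3 was lower both with and without it. Ube2q2 had 79.9 to 246 CPM (median 157) in knockout and 38.3 to 146 CPM (median 79.2) in wildtype embryos. All 15 knockout embryos lay above the wildtype median, at 0.93 (SE 0.19, adjusted p 0.0022), and 0.95 (SE 0.18) without replicate 7. Ube2q1 had 5.10 to 20.9 CPM (median 8.67) in knockout and 0 to 7.69 CPM (median 3.36) in wildtype embryos. Again all 15 lay above the wildtype median, at 1.46 (SE 0.31, adjusted p 0.00362), and 1.39 (SE 0.31) without it. It too passed the filter through its knockout level, with 15 knockout and 4 wildtype embryos at or over 5.10 CPM, and stood at 1.38 (adjusted p 0.0175) with no filter.

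Ube2m, the NEDD8 enzyme that serves most cullins, had 0 to 37.1 CPM (median 9.06) in knockout and 0.355 to 6.78 CPM (median 3.05) in wildtype embryos. It was at 0 in replicate 7, stood at 1.91 (SE 0.39, adjusted p 0.00241), and at 2.01 (SE 0.34) without that library. It passed the expression filter at this stage alone, mainly through its knockout level, with 11 knockout and 3 wildtype embryos at or over 5.10 CPM, and in 28 of the 31 fits that leave out 1 library. With no filter it stood at 1.87 (adjusted p 0.00902). Ube2w had 20.1 to 299 CPM (median 44.8) in knockout and 5.98 to 47.3 CPM (median 19.1) in wildtype embryos. All 15 lay above the wildtype median, at 2.07 (SE 0.42, adjusted p 0.00227), and 1.37 (SE 0.29) without replicate 7, which held the highest value. Ube2a had 134 to 379 CPM (median 200.2) in knockout and 68.3 to 231 CPM (median 133) in wildtype embryos. It stood at 0.58 (SE 0.18, adjusted p 0.0289), and 0.56 (SE 0.17) without replicate 7. The call was lost without knockout replicate 6 or 11, and with no filter (0.52, adjusted p 0.0932). Ube2e3 had 129 to 1535 CPM (median 1161) in knockout and 1099 to 2419 CPM (median 1615) in wildtype embryos. All 15 knockout embryos lay below the wildtype median, at -0.64 (SE 0.17, adjusted p 0.0134), and -0.55 (SE 0.12) without replicate 7. With the replicate number as a block in edgeR, Ube2a (adjusted p 0.0548), Ube2w (0.0696), Ube2m (0.0852) and Ube2e3 (0.101) lost their calls. Ube2q1 and Ube2q2 kept theirs.

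The Ube2d calls rested on replicate 7. Ube2d2a had 139 to 2042 CPM (median 179.9) in knockout and 90.9 to 221 CPM (median 148) in wildtype embryos, with 303 CPM as the next highest knockout value. It stood at 1.53 (SE 0.42, adjusted p 0.0153) with replicate 7 and at 0.31 (adjusted p 0.118) without it. Ube2d3 had 639 to 4738 CPM (median 935) in knockout and 592 to 961 CPM (median 788) in wildtype embryos, with 1176 CPM as the next highest. It stood at 0.89 (SE 0.30, adjusted p 0.048) with replicate 7 and at 0.21 (adjusted p 0.159) without it, and 22 of the 31 fits that leave out 1 library lost its call. Ube2d1 had 0.559 to 106 CPM (median 8.05) in knockout and 0.746 to 16.2 CPM (median 6.39) in wildtype embryos, with 26.6 CPM as the next highest, and stood at 1.71 (SE 0.53, adjusted p 0.0312) with replicate 7 and at 0.46 (adjusted p 0.395) without it. None of the 3 was called without that library.

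Ube2c behaved in the opposite way. It had 1.44 to 1436 CPM (median 829) in knockout and 478 to 903 CPM (median 605) in wildtype embryos, the lowest value being that of replicate 7 and 415 CPM the next lowest. It was not called with that library, at 0.35 (SE 0.29, adjusted p 0.46), and was higher in knockout without it, at 0.47 (SE 0.12, adjusted p 0.013). Replicate 7 also held more Ube2k (1074 CPM), Ube2g1 (655 CPM) and Ube2h (72.2 CPM) than the other 14 knockout embryos, and less Ube2l3 (7.70 CPM), Ube2b (76.1 CPM) and Ube2t (0 CPM). Without it the oocyte marker sum was 53.7 to 163 CPM (median 82.0) in knockout, against 29.4 to 122 CPM (median 73.8) in wildtype, and its part in the results without replicate 7 was not tested.

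**Figure D4:**
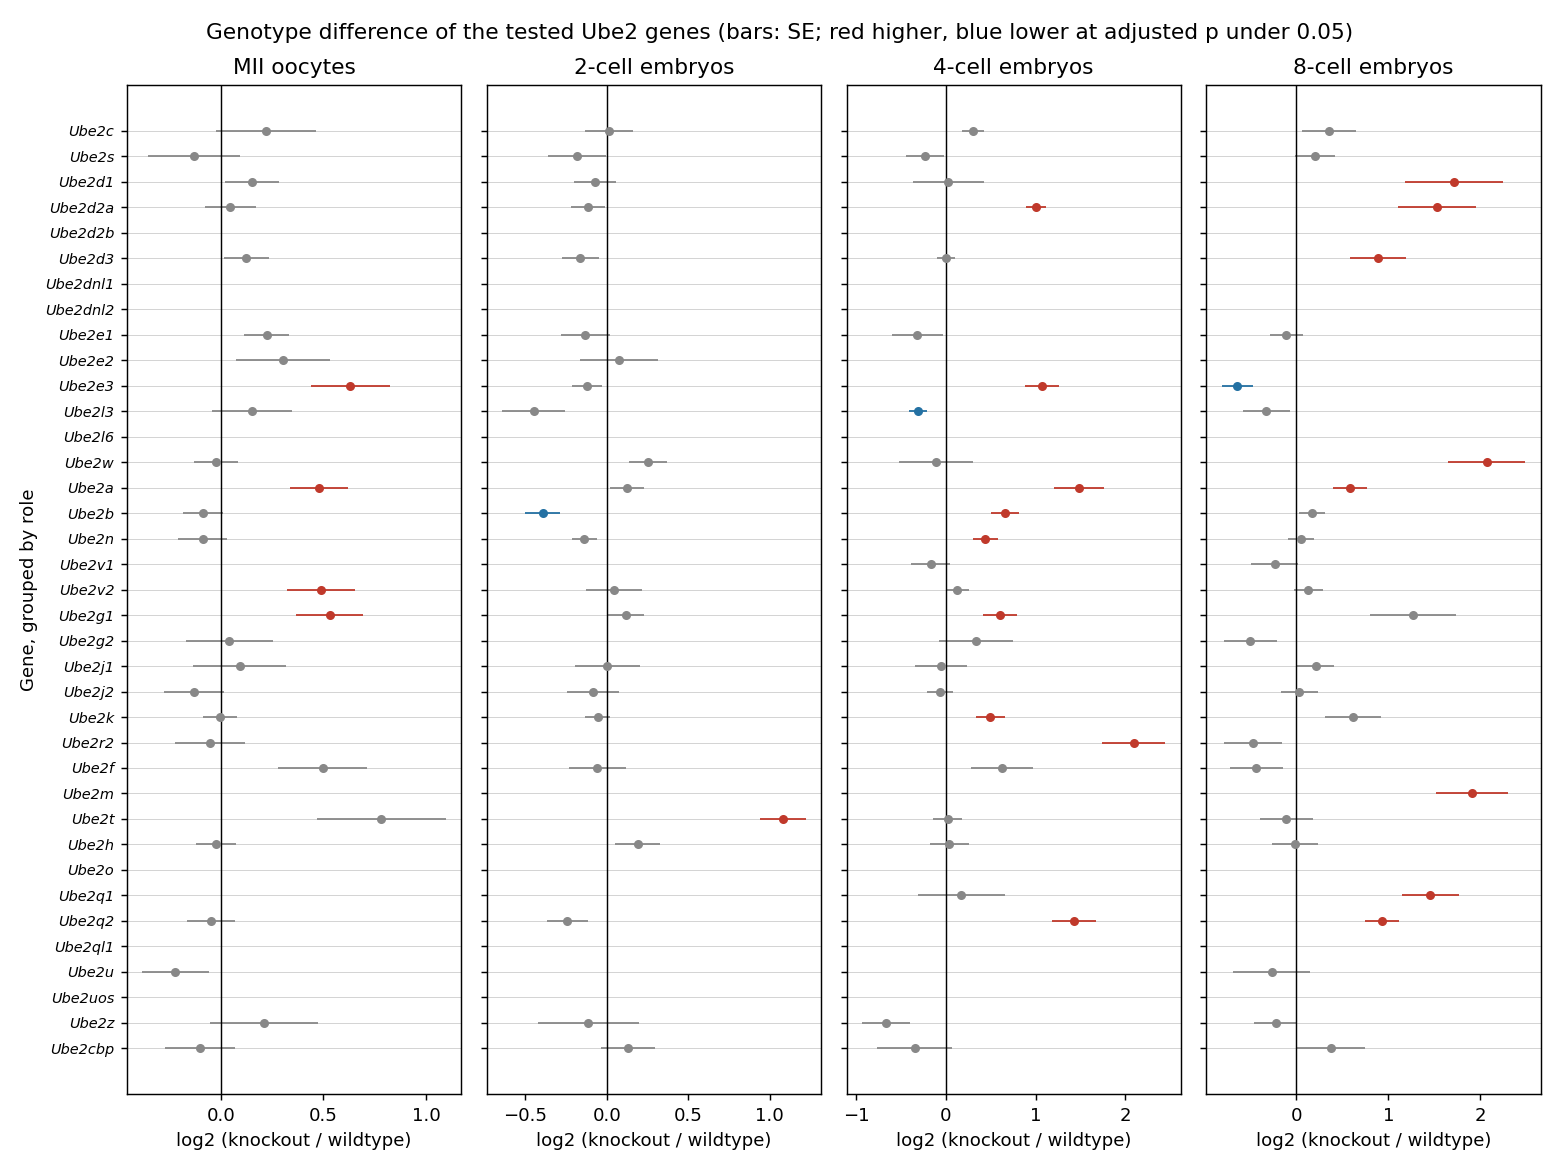
Log2 fold change of knockout over wildtype (x axis, a panel per stage) for the Ube2 genes that passed the expression filter (rows, grouped by role), with bars of 1 SE; red is higher and blue lower at an adjusted p under 0.05. The 4-cell and 8-cell panels hold the most coloured points, nearly all of them to the right of 0.

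**Figure D5:**
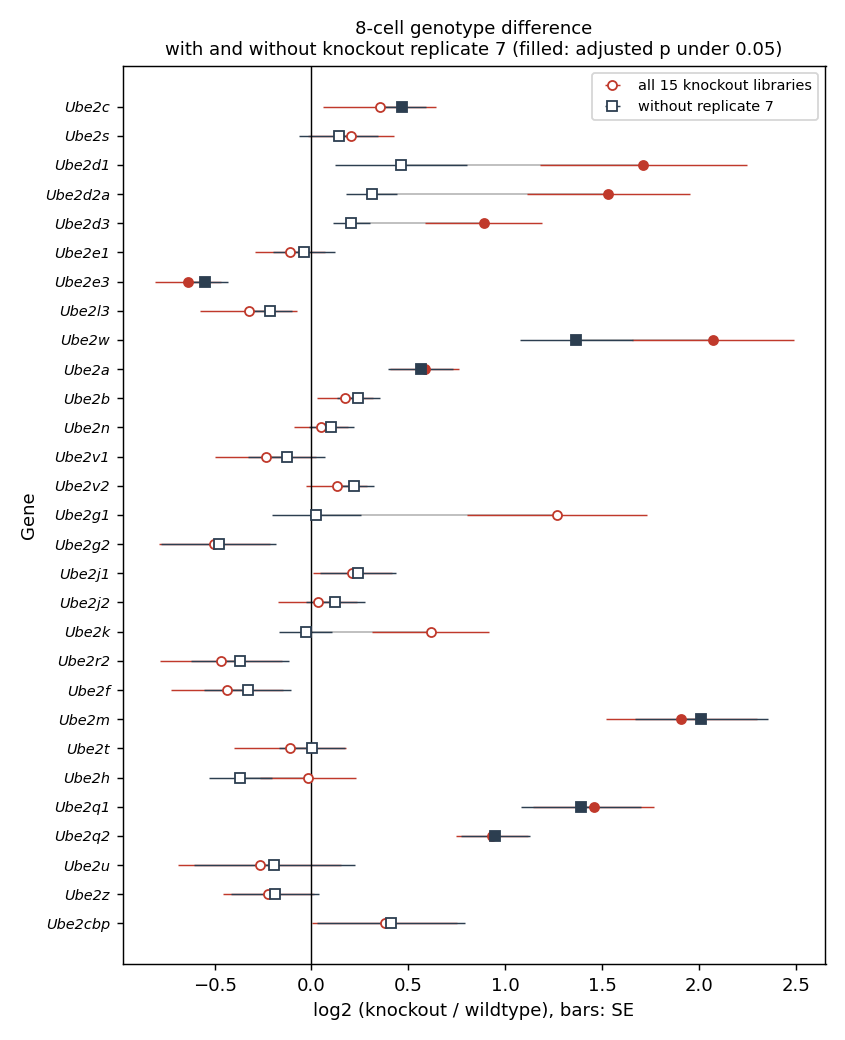
Log2 fold change of knockout over wildtype in 8-cell embryos (x axis) for the Ube2 genes tested (rows), with all 15 knockout libraries and without replicate 7; bars are 1 SE and filled symbols have an adjusted p under 0.05. Ube2d1, Ube2d2a and Ube2d3 move towards 0 and lose their calls, while Ube2q1, Ube2q2, Ube2m, Ube2a and Ube2e3 keep theirs.

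Whether a genotype difference itself changed between adjacent stages was tested as the knockout change minus the wildtype change. From MII to the 2-cell stage this was called for 1 of 28 members, with a negative sign, where 1.87% of all genes had a positive and 2.2% a negative difference, 4.07% in all. Ube2e3 changed by -0.15 in knockout and 0.61 in wildtype, a difference of -0.77 (SE 0.21, adjusted p 0.023). Without MII knockout replicate 15 it was -0.47 (adjusted p 0.0263). In CPM, Ube2e3 rose in both genotypes, from a median of 79.2 to 114 CPM in knockout and from 64.4 to 124 CPM in wildtype. The negative knockout change was thus relative to the TMM scaling, which CPM does not carry.

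From the 2-cell to the 4-cell stage 8 of 29 members had a positive and 2 a negative difference (34.5%), where 11.5% of all genes had a positive and 4.13% a negative one, 15.6% in all. Ube2r2 changed by 2.16 in knockout and -0.12 in wildtype, a difference of 2.27 (SE 0.56, adjusted p 0.00356). Ube2r2 was tested at this step through its 4-cell knockout level, where 15 embryos reached the 5.03 CPM of the expression filter. The other groups lay near the floor, with 4 wildtype 4-cell, 2 knockout 2-cell and 4 wildtype 2-cell embryos at or over their filter levels. Ube2q2 changed by 0.66 in knockout and -1.02 in wildtype, a difference of 1.69 (SE 0.28, adjusted p 1.85e-05). Ube2a changed by -0.57 in knockout and -1.96 in wildtype, a difference of 1.38 (SE 0.30, adjusted p 0.000832). The 2 genotypes thus had Ube2q2 changes of opposite sign under TMM scaling, with the knockout change under the fold rule. The median wildtype change of all genes was -0.44 with TMM and -0.77 with RLE scaling. The sign of a small change can depend on this scaling. The Ube2a change was nearer 0 in knockout. The others were Ube2e3 (1.20 (SE 0.22)), Ube2d2a (1.13 (SE 0.15)), Ube2b (1.07 (SE 0.18)), Ube2n (0.60 (SE 0.15)) and Ube2k (0.57 (SE 0.18)). Ube2t had -1.06 (SE 0.22, adjusted p 0.000695), being higher in knockout at the 2-cell stage and at 0.02 at the 4-cell stage.

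From the 4-cell to the 8-cell stage 1 of 32 members had a positive and 2 a negative difference (9.38%), where 1.68% of all genes had a positive and 0.579% a negative one, 2.26% in all. Ube2r2 changed by -0.38 in knockout and 2.20 in wildtype, a difference of -2.58 (SE 0.47, adjusted p 0.000988). In 8-cell embryos it had 0 to 32.4 CPM (median 10.7) in knockout and 5.09 to 32.9 CPM (median 15.7) in wildtype, and the difference did not pass the test (-0.47). Ube2e3 changed by 0.06 in knockout and 1.76 in wildtype, a difference of -1.71 (SE 0.27, adjusted p 4.86e-05). Its knockout medians were 987 CPM at the 4-cell and 1161 CPM at the 8-cell stage, and its wildtype medians 521 and 1615 CPM. The 4-cell libraries also enter the step before, with opposite sign, so the Ube2r2 and Ube2e3 differences at these 2 steps are not independent. Ube2w had 1.99 (SE 0.58, adjusted p 0.0452). That call was lost without 8-cell knockout replicate 7, at 1.46 (adjusted p 0.14), without 4-cell knockout replicate 15, at 1.92 (adjusted p 0.0537), and without 4-cell wildtype replicate 11, at 1.13 (adjusted p 0.211). Without 8-cell knockout replicate 7 Ube2d2a was called, at -0.69 (adjusted p 0.0165), and Ube2r2 and Ube2e3 kept their calls.

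Around the E2 enzymes, the rest of the pathway was read in 5 lists. Of the E1 enzymes, 1 of 8 tested was higher and 1 lower in knockout 4-cell embryos, against 9.11% and 7.34% of all genes. Nae1, a subunit of the NEDD8-activating enzyme, had 41.98 to 258 CPM (median 125) in knockout and 19.7 to 134 CPM (median 37.98) in wildtype embryos, at 1.56 (SE 0.24, adjusted p 3.64e-05), and was higher again in 8-cell embryos, at 1.17 (SE 0.29) with all libraries and 0.80 (SE 0.21) without replicate 7. In MII oocytes 0 of 7 and in 2-cell embryos 0 of 6 E1 genes were called by edgeR; at an unadjusted p under 0.05, 2 were higher and 1 lower in MII oocytes and 3 higher and 0 lower in 2-cell embryos, and DESeq2 calls were not counted over the lists.

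Of the ubiquitin and ubiquitin-like genes, 4 of 8 tested were lower and 0 higher in knockout 2-cell embryos (9.91% and 7.44% of all genes). At an unadjusted p under 0.05, 1 was higher, and without replicate 13 edgeR called 1 higher and 4 lower. At each other stage 1 was lower, with 2 lower in 8-cell embryos without replicate 7. Of all genes, 6.67%, 7.34% and 3% were lower in MII oocytes, 4-cell and 8-cell embryos. In 2-cell embryos Sumo2, a ubiquitin-like modifier, had 8.57 to 37.7 CPM (median 15.97) in knockout and 22.3 to 146 CPM (median 41.2) in wildtype, at -1.44 (SE 0.23, adjusted p 3.14e-05). Rps27a, a ubiquitin-ribosomal fusion gene, stood at -0.79 (SE 0.18), the polyubiquitin gene Ubb at -0.46 (SE 0.14) and Ufm1 at -0.39 (SE 0.12). Of the anaphase-promoting complex, 4 of 14 genes tested were higher and 0 lower in knockout 2-cell embryos (7.44% and 9.91% of all genes), with 1 lower at an unadjusted p under 0.05. The 4 were Anapc10 (0.36 (SE 0.10)), Anapc4 (0.51 (SE 0.16)), Anapc5 (0.43 (SE 0.15)) and Anapc16 (0.30 (SE 0.11)), while its E2 enzymes Ube2c (0.01 (SE 0.15)) and Ube2s (-0.18 (SE 0.18)) were not called. Without 2-cell knockout replicate 13, Anapc5 and Anapc16 lost their calls, at 0.41 (adjusted p 0.0543) and 0.30 (adjusted p 0.0519). In MII oocytes 3 of 14 genes of this list were higher (2 more were lower without replicate 15). In 4-cell embryos 2 of 13 were higher and 2 lower, and in 8-cell embryos 1 of 15 was higher and 2 lower. Of all genes, 5.25%, 9.11% and 8.45% were higher and 6.67%, 7.34% and 3% lower at these stages.

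Of the E2-fold genes of other names, 1 of 7 tested was higher in MII oocytes and 1 of 8 at each later stage. Of all genes, 5.25%, 7.44%, 9.11% and 8.45% were higher at the 4 stages. The genes called were Atg10 in MII oocytes (0.54 (SE 0.15)) and 8-cell embryos (1.16 (SE 0.35)), Tsg101 in 2-cell embryos (0.38 (SE 0.13)) and Atg3 in 4-cell embryos (0.75 (SE 0.21)). The 8-cell Atg10 value was 1.13 (SE 0.34) without replicate 7, and the MII value 0.46 (SE 0.13) without replicate 15. Without replicate 7, 2 of 8 genes of this list were higher in 8-cell embryos. Atg3 and Atg10 are the E2-like enzymes of autophagy. Of the E3 ligases and cofactors known to work with named members, 5 of 28 were higher and 4 lower in knockout 4-cell embryos, against 9.11% and 7.34% of all genes. In this list 2 of 27 were higher in MII oocytes (1 more was lower without replicate 15). In 2-cell embryos 2 of 29 were higher and 3 lower, and 4 were higher and 3 lower without replicate 13. In 8-cell embryos 4 of 28 were higher and 1 lower, and 2 were higher and 1 lower without replicate 7. Of all genes, 5.25%, 7.44% and 8.45% were higher and 6.67%, 9.91% and 3% lower at these stages with all libraries. At the 4-cell stage the smallest p-values belonged to Dcun1d1, which helps Ube2m modify cullins (0.73 (SE 0.15)), Rnf4, a ligase for SUMO-marked proteins (-0.52 (SE 0.12)), the SUMO ligase Pias2 (1.20 (SE 0.29)) and Kcmf1 (0.49 (SE 0.12)). Without 4-cell knockout replicate 15 these 4 kept their calls.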

How the data were processed

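PolyA RNA of single oocytes and embryos was amplified with a SMART-Seq kit and sequenced from both ends at 150 bp, per the labels. The submitters' processing notes name Trimmomatic 0.32, STAR 2.5.1a, featureCounts 1.5.1 and the build mm10. No strand setting of the counting is given there, so overlapping and antisense genes cannot be told apart. The authors deposited estimated counts per gene, 30.56% of them non-whole among those above 0 (tolerance 0.001), and these were rounded here. Libraries under 100000 counts were left out. Among 945 pairs of libraries of the same group the lowest chi-square per gene was 5.26, so none looked like 1 library deposited again.

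Genotypes were compared at each stage with edgeR 4.0.16 under R 4.3.3 (quasi-likelihood F test, robust, TMM, filterByExpr by group, Benjamini-Hochberg over all genes tested, threshold 0.05). Each pair of adjacent stages was fitted with its 4 groups for stage changes and interactions, and a stage change had to reach a log2 size of 1. As alternatives, RLE factors, DESeq2 1.42.0, limma 3.58.1, other filters, a replicate block, replicates 1 to 8 or 9 to 16 alone, and leaving out each library were tried. Python 3.11.15, pandas 2.3.3, numpy 2.4.6 and matplotlib 3.10.9 did the rest. The fits were tested on simulated counts. Values per group are given for members called in a genotype or interaction test, for up to 4 members each way with the largest wildtype change at each step and for the 5 leading members per kilobase; of each pathway list, up to 4 called genes with the smallest p are named at the stage with most calls. Some genes that these rules name are counted but not reported here. This gene family, the lists and the tests were chosen with earlier results of these data known.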

Additional observations from a re-analysis of the deposited data

Results flagged for a closer look

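For these members the change between adjacent stages differed between the genotypes by the interaction test of edgeR (knockout change minus wildtype change on the log2 scale, adjusted p under 0.05). From MII to the 2-cell stage this held for Ube2e3 (-0.77). From the 2-cell to the 4-cell stage it held for Ube2r2 (2.27), Ube2q2 (1.69), Ube2a (1.38), Ube2e3 (1.20), Ube2d2a (1.13), Ube2b (1.07), Ube2n (0.60), Ube2k (0.57) and Ube2t (-1.06). At that step Ube2r2 was tested through its 4-cell knockout level, its other groups lying near the floor. From the 4-cell to the 8-cell stage it held for Ube2w (1.99), Ube2e3 (-1.71) and Ube2r2 (-2.58). Adjacent steps share the libraries of the stage between them, with opposite sign, so values of 1 gene at adjacent steps are not independent. Of all genes tested, 4.07%, 15.6% and 2.26% were called at these steps.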

How the results depend on the processing

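No called member changed its direction under an alternative. Leaving out each library in turn gave 3 to 6 called members in MII oocytes, 2 in 2-cell (every such fit), 8 to 11 in 4-cell and 7 to 9 in 8-cell embryos. Replicates 1 to 8 alone gave 3 called members in MII oocytes, 3 in 2-cell, 2 in 4-cell and 0 in 8-cell embryos. Replicates 9 to 16 alone gave 0 in MII oocytes, 1 in 2-cell, 7 in 4-cell and 1 in 8-cell embryos. Both sets have fewer samples than the main fits, and more 4-cell calls of members came from replicates 9 to 16. The share of all genes called was not counted in these sets, with limma, with no filter or with the replicate block. The member counts there cannot be set against such a share. With no expression filter 1 member was called in MII oocytes, and 0 interactions from MII to the 2-cell stage; without MII knockout replicate 15 there were 2. At the 2-cell stage the log2 fold change of Ube2b stood at -0.74 (SE 0.14) with the low replicate numbers, 1 to 8. With the high numbers, 9 to 16, Ube2b stood at -0.06 (SE 0.14) and lost its call. The gap between these values was not tested, nor was the part of sample number in that loss. DESeq2 called 5 members in 8-cell embryos, where it gave no adjusted p for 4 of the 9 called by edgeR and called the other 5. Of all genes called in 8-cell embryos, 73.8% were higher in knockout by edgeR and 49.5% by DESeq2. With no fold threshold 24 members changed from MII to the 2-cell stage in wildtype. With the replicate number as a block 1 member was called in MII oocytes and 2 in 8-cell embryos; the numbers do not pair the samples, since only 6, 3, 5 and 6 same-numbered pairs at the 4 stages had a correlation over 0.1, and 2, 1, 2 and 1 knockout libraries correlated best with their own number. For single members, 914 of 1027 genotype values, 88 of 97 interactions and 300 of 309 stage changes kept their call under the alternatives. Most of these genotype values come from fits that leave out 1 library and share nearly all data with the main fit. Across the other alternatives a larger share of genotype calls was lost. In the genotype comparisons limma with quality weights called 4 members in MII oocytes, 2 in 2-cell, 11 in 4-cell and 7 in 8-cell embryos. Without the libraries that stood apart, 9 to 12, 18 to 19 and 2 to 5 members changed at the 3 knockout steps, against 9, 18 and 3 with them. Of all genes tested, 49.3% to 50.9%, 75.1% to 75.3% and 10.9% to 12.9% were called in these fits. In the genotype comparisons without these libraries, 45 called list genes kept and 4 lost their calls. The alternatives without 4-cell wildtype replicate 11, and the fits of adjacent stages without 2-cell knockout replicate 13 or 4-cell knockout replicate 15, were chosen after seeing the data, as were those for the knockout steps and lists. Depth limits the members near 0, whose differences were not detectable here. Reads of near-identical copies may limit the members with many non-whole counts, Ube2l3 and Ube2v2 among them.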
